A study of Mus musculus with 7 samples.

Results

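The 10 genes described here encode parts of the contractile apparatus that smooth muscle shares with mammary myoepithelium, together with the oxytocin receptor. They are Acta2, Actg2, Myh11, Cnn1, Tagln, Mylk, Myl9, Lmod1, Des and Oxtr. They were taken by gene symbol from tables of 50600 genes, and all 10 were present. Sequencing covered 3 mammary glands labelled control and 4 mammary tumours labelled ECD transgenic, ECD being the ecdysoneless gene. Tumours 1a and 1b were adenosquamous carcinomas, tumour 3 was a spindle cell carcinoma and tumour 4 a papillary carcinoma. The sources used here give neither the promoter nor the species of the transgene, nor the strain, age or genotype of the mice, control animals included. RNA came from mammary glands or from the centre of a tumour, so it is a mixture of cell types, and fewer cells of a type cannot be told apart from less RNA per cell. The glands and tumours are described as independent, but whether the adenosquamous pair came from 1 animal is not stated in the labels.

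Myoepithelial cells form the contractile basal layer around mammary ducts and alveoli. Oxtr, the receptor for oxytocin, raises cell calcium, which activates myosin light chain kinase and so contracts these cells to eject milk. Many contractile genes are switched on by serum response factor (Srf), which binds a short DNA motif called the CArG box together with its partner myocardin. The same genes are active in vascular smooth muscle and pericytes, and several of them in the myofibroblasts of tumour stroma, so no member marks 1 cell type alone.

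To show what lies before genes whose levels behaved differently across these libraries, 4 upstream sequences are printed here, each the 250 bases before the RefSeq gene start on GRCm38.p6. The sense strand is given 5′ to 3′. Capitals mark a CArG box (CC, then 6 bases of A or T, then GG) or a CArG-like match, in which 1 of these 6 bases is not A or T. Acta2 (smooth muscle alpha actin) and Myl9 (a regulatory light chain) did not separate tumours from glands, Lmod1 (an actin filament nucleator) was lower in every tumour, and Oxtr was high in 1 tumour and low in 3. The Acta2 sequence is chr19:34255374-34255623 on the minus strand, the Myl9 sequence chr2:156775214-156775463 on the plus strand, the Lmod1 sequence chr1:135324563-135324812 on the plus strand and the Oxtr sequence chr6:112489826-112490075 on the minus strand.
Acta2: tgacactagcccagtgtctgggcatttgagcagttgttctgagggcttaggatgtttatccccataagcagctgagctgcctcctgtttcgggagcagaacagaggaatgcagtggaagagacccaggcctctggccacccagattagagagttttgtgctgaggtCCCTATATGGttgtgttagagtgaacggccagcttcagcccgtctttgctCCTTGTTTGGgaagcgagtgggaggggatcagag
Myl9: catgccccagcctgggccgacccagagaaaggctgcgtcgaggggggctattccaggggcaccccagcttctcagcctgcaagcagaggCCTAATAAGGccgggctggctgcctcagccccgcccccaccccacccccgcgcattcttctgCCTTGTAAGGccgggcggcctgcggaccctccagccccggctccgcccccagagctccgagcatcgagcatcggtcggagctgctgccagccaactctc
Lmod1: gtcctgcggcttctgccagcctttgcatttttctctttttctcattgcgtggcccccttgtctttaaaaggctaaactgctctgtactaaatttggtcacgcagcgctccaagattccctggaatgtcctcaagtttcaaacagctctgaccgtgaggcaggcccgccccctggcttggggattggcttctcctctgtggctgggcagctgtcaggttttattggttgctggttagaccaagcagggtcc
Oxtr: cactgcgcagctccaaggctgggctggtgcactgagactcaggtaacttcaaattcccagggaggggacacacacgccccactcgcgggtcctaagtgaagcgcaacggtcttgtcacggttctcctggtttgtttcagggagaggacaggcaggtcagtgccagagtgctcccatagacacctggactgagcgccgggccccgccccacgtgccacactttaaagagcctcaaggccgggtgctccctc
Myl9 held 1 CArG box, CCTAATAAGG, starting 161 bases before the gene start, and 1 CArG-like match, CCTTGTAAGG, at 99 bases. Acta2 held 2 CArG-like matches, CCCTATATGG at 84 bases and CCTTGTTTGG at 34 bases. Neither form was found in the Lmod1 or Oxtr window, or in the windows of Cnn1, Des and Mylk. Cnn1 and Mylk, like Acta2 and Myl9, overlapped between tumours and glands, so a match did not sort the members by level. The Mylk window, from 34784700, lies inside the gene as GENCODE M21 gives it, from 34745210. The CArG box reads the same way on both strands, and both were searched over 250 bases before to 50 bases after the start. Of 32851 such windows of the RefSeq table, 1.63% held a CArG box and 8.5% held a CArG-like match. Among the 7 members that matched a window, 1 held a box and 2 a CArG-like match. The search for the looser form was added after the first search had been seen. A match is a run of letters and was not tested as a binding site.

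Library totals ranged from 5148436 to 35631302 counts, and gland 1, the adenosquamous tumours and the spindle cell tumour were the shallow ones, at 7986914 or fewer. Mitochondrial genes took 48.36% to 64.83% of counts in glands and 18.34% to 32.61% in tumours. Levels below are CPM, counts scaled to a common library total and adjusted between libraries by the trimmed mean of M values (TMM), so they compare a gene across libraries. A summed list of 20 skeletal muscle genes stood at 57200 CPM in gland 1 and 88500 CPM in gland 3, but at 111 CPM in gland 2, where Myh7 and Lmod2 were at 0. In tumours 1a, 1b, 3 and 4 that sum was 859, 183, 23.4 and 14.0 CPM. Basal keratins, which mark the layer that holds myoepithelium, were low in all 3 glands, where Krt14 was 2.83, 4.82 and 9.86 CPM. Krt14 reached 855, 428, 132 and 19.5 CPM in adenosquamous tumours 1a and 1b, the spindle cell tumour and the papillary tumour. Other basal keratins were not raised in the papillary tumour. Krt5 stood at 0.348 CPM in it, below the 1.77 to 10.1 CPM of glands. Krt17 stood at 1.11 CPM in it, within the 0 to 3.37 CPM of glands. The summed level of 8 adipocyte genes was 3980, 6930 and 9000 CPM in the glands and 164, 25.6, 23.7 and 44.4 CPM in the 4 tumours. Of these genes 7 fell in tumours and 1 did not pass, and this stands beside the lower Lmod1, Myh11, Tns1 and Plcb1 levels in tumours. Its part in them was not tested. Gland 1 also differed from glands 2 and 3 by gene length, with a median log2 difference of -0.44 in the 3533 shortest genes and -0.02 in the 3531 longest.

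**Figure D1:**
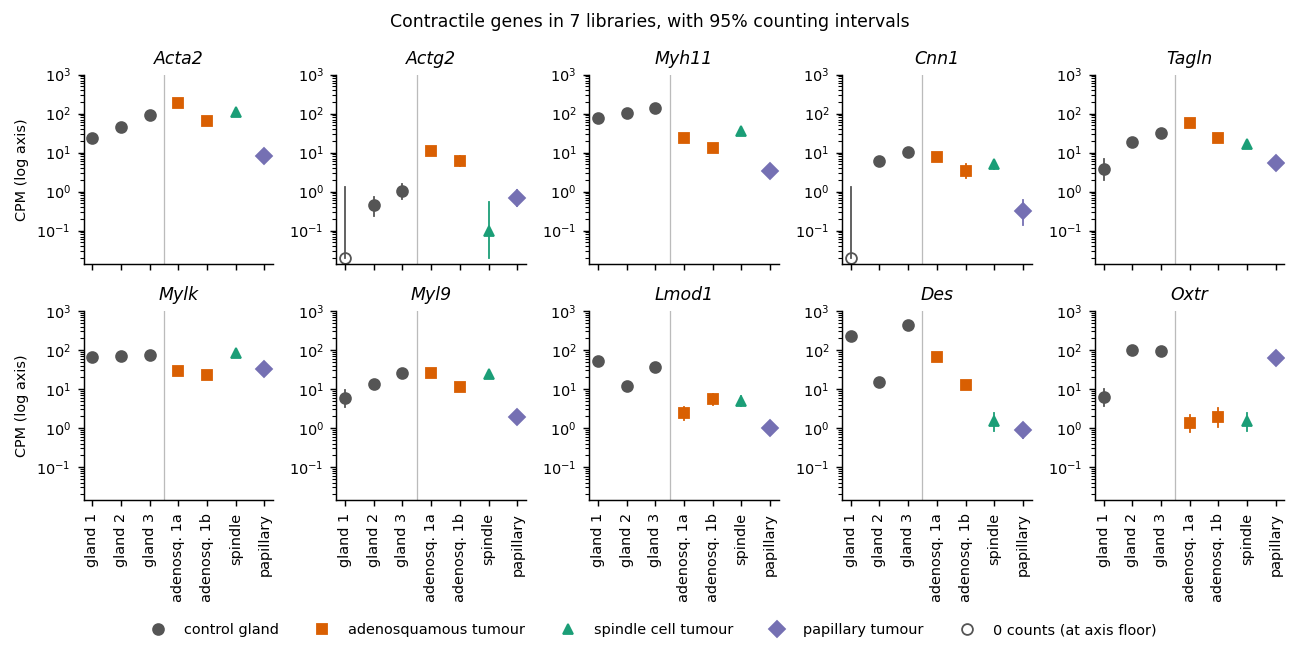
Level of each of the 10 genes in each library, in CPM on a log axis, with exact 95% Poisson intervals that cover counting error only. Every tumour lies below every gland for Myh11 and Lmod1. The papillary tumour has the lowest tumour value for 7 genes, a count for which the share over all genes was not taken. For Oxtr the papillary tumour stands among the glands.

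In tumours against glands, Lmod1 fell and none of the other 8 members tested passed. All 4 tumours had less Myh11 than any gland, 5.60-fold less in the fit, but the gene missed the threshold. Acta2, Tagln and Myl9, which belong to the same apparatus, overlapped between glands and tumours. Genes were tested by the edgeR quasi-likelihood F test with Benjamini-Hochberg adjustment over all 14149 genes kept, and an adjusted p under 0.05 counted as passing. Beside 1 of 9 members, 8.47% of all genes tested passed, 3.9% being higher and 4.57% lower in tumours. The members' median log2 fold change (the log2 of tumour over gland) was -0.72, against 0.12 over all genes. Actg2 was below the filter on low counts in this comparison. Without the papillary tumour 3 members passed, all lower: Lmod1, Myh11 and Oxtr.

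Lmod1 (ENSMUSG00000048096, chromosome 1, 135324807 to 135368065, plus strand, GENCODE M21 on GRCm38) stood at 52.0, 12.0 and 36.1 CPM in glands 1, 2 and 3. It stood at 2.47, 5.44, 4.93 and 0.976 CPM in tumours 1a, 1b, 3 and 4. The tumours lay wholly below the glands, and gland 2 was the lowest gland. The means were 33.4 ± 20.1 CPM (SD, n = 3) and 3.45 ± 2.10 CPM (SD, n = 4). Its log2 fold change was -3.28 (SE 0.71, 9.74-fold lower, edgeR adjusted p = 0.0343). Leaving out gland 1 or 3, or tumour 1a, 1b or 3, gave an adjusted p of 0.109, 0.114, 0.071, 0.0669 and 0.0628 in that order. With gland 2 as the only gland, the one with little skeletal muscle RNA, the log2 fold change was -1.89. That setting holds 1 gland and cannot separate muscle content from other differences of gland 2. The part of muscle tissue in the Lmod1 difference was not tested. The striated relative Lmod3 stood at 180 and 77.1 CPM in glands 1 and 3 and at 0.63 CPM in gland 2.

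Myh11 (ENSMUSG00000018830, chromosome 16, 14194535 to 14291372, minus strand) encodes smooth muscle myosin heavy chain, the motor of the apparatus. It stood at 77.5, 101 and 135 CPM in glands 1, 2 and 3 and at 23.2, 13.2, 35.1 and 3.38 CPM in tumours 1a, 1b, 3 and 4. Here gland 2 lay between the other glands, and the papillary tumour was lowest. The means were 104 ± 28.8 CPM (SD, n = 3) and 18.7 ± 13.6 CPM (SD, n = 4). The log2 fold change was -2.48 (SE 0.68, edgeR adjusted p = 0.0652), and it was -2.52 with gland 2 as the only gland. DESeq2 gave an adjusted p of 0.00337 and limma-voom 0.0384, and without the papillary tumour edgeR gave -2.19 with an adjusted p of 0.0261. Myh11 and Lmod1 were the 2 members with every tumour below every gland, an order seen in 13.2% of all genes tested, and no member had every tumour above, as 16.3% of genes did.

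The actins ran differently from the myosin. Acta2 (ENSMUSG00000035783, chromosome 19, 34241090 to 34255590, minus strand) stood at 23.7, 46.3 and 89.4 CPM in glands 1, 2 and 3. It stood at 181, 63.5, 112 and 8.01 CPM in tumours 1a, 1b, 3 and 4. The highest and the lowest of the 7 libraries were both tumours. The log2 fold change was 0.77 (SE 0.90, edgeR adjusted p = 0.604). Actg2 (ENSMUSG00000059430, chromosome 6, 83512905 to 83536265, minus strand), the smooth muscle gamma actin typical of gut wall, had 0, 14 and 22 counts in the glands. It had 129, 46, 1 and 20 counts in tumours 1a, 1b, 3 and 4. In CPM that was 0.441 and 1.04 in glands 2 and 3, below 1.06 in gland 1 by the limit that 0 counts allows, and 11.0, 6.26, 0.0985 and 0.697 in the tumours. Both adenosquamous tumours lay above all glands, and the spindle cell and papillary tumours did not. No 75-base window of the Acta2 or Actg2 transcripts occurs in another gene, so reads of 1 actin need not have been shared with another.

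The actin- and myosin-binding members overlapped between tumours and glands. Tagln (ENSMUSG00000032085, chromosome 9, 45929619 to 45936058, minus strand), the actin-bundling transgelin, stood at 3.89, 18.2 and 32.1 CPM in the glands and at 57.3, 23.8, 16.3 and 5.40 CPM in tumours 1a, 1b, 3 and 4. For Tagln the log2 fold change was 0.48 (SE 0.87, edgeR adjusted p = 0.742). Of its 75-base windows, 53.3% are shared, nearly all with an overlapping antisense gene, whose reads cannot be told apart without strand, so Tagln levels are uncertain. Cnn1 (ENSMUSG00000001349, chromosome 9, 22099216 to 22109630, plus strand), the calponin that restrains myosin ATPase, stood at 6.24 and 10.6 CPM in glands 2 and 3 and at 0 counts in gland 1. In tumours 1a, 1b, 3 and 4 it stood at 7.66, 3.40, 5.02 and 0.314 CPM. The log2 fold change was -0.51 (SE 1.20, edgeR adjusted p = 0.806). Gland 1, of small depth and with lower values for short genes, was the lowest library for Actg2, Cnn1 and Tagln, and the part of depth in that was not tested.

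The light chain and its kinase also overlapped. Myl9 (ENSMUSG00000067818, chromosome 2, 156775420 to 156781658, plus strand) stood at 6.01, 13.6 and 25.6 CPM in the glands and at 26.2, 11.3, 24.2 and 1.95 CPM in tumours 1a, 1b, 3 and 4. Its log2 fold change was 0.06 (SE 0.83, edgeR adjusted p = 0.974). Tumour 1a lay just above the range of the glands and the papillary tumour below it. Mylk (ENSMUSG00000022836, chromosome 16, 34745210 to 35002420, plus strand), the kinase that phosphorylates this light chain, stood at 65.1, 70.5 and 75.5 CPM in the glands. Among the members it varied least between glands, 1.16-fold from lowest to highest. In tumours 1a, 1b, 3 and 4 it stood at 29.2, 22.7, 86.2 and 33.1 CPM, so 3 tumours lay below the glands and the spindle cell tumour above them. Its log2 fold change was -0.72 (SE 0.47, edgeR adjusted p = 0.342).

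Des (ENSMUSG00000026208, chromosome 1, 75360329 to 75368579, plus strand) encodes desmin, the intermediate filament of all muscle, skeletal muscle included. It stood at 231, 15.5 and 432 CPM in glands 1, 2 and 3, a 27.9-fold range that followed the skeletal muscle sum. In tumours 1a, 1b, 3 and 4 it stood at 65.5, 12.9, 1.48 and 0.871 CPM, again in the order of that sum. Tumour 1a lay above gland 2. The log2 fold change was -3.49 (SE 1.58, edgeR adjusted p = 0.192), and 0.30 with gland 2 as the only gland. The part of skeletal muscle RNA in the Des levels was not tested.

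Oxtr (ENSMUSG00000049112, chromosome 6, 112473683 to 112489943, minus strand) stood at 6.37, 99.1 and 94.9 CPM in glands 1, 2 and 3. It stood at 1.36, 1.90 and 1.48 CPM in tumours 1a, 1b and 3, from 16, 14 and 15 counts, and at 64.2 CPM in the papillary tumour, from 1844 counts. The papillary value lay within the range of the glands, and the other 3 tumours lay below gland 1. The log2 fold change over all 4 tumours was -1.94 (SE 1.54, edgeR adjusted p = 0.433), and without the papillary tumour it was -5.44 (edgeR adjusted p = 0.0237).

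**Figure D2:**
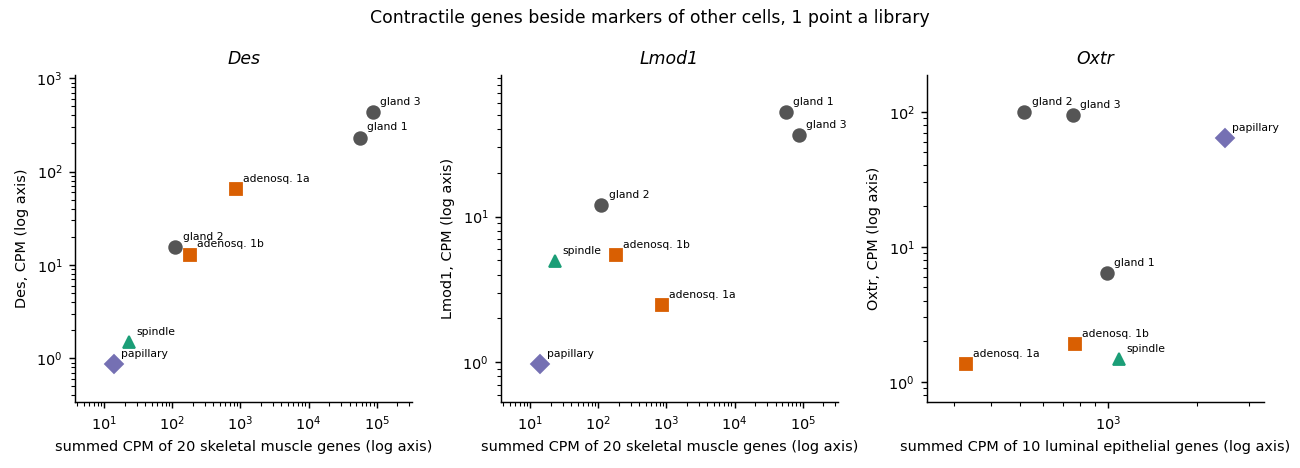
Des and Lmod1 against the summed CPM of 20 skeletal muscle genes, and Oxtr against the summed CPM of 10 luminal epithelial genes, 1 point a library, all on log axes. Glands 1 and 3 lie apart from gland 2 on the skeletal muscle axis. The papillary tumour has the highest luminal sum, 2490 CPM, with Oxtr at 64.2 CPM. Oxtr did not follow the luminal sum in other libraries. The spindle cell tumour, with the next highest sum of 1090 CPM, had Oxtr at 1.48 CPM. Gland 1 had a sum of 986 CPM with Oxtr at 6.37 CPM, and gland 2 a sum of 519 CPM with Oxtr at 99.1 CPM.

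Per kilobase of exon, so that levels can be compared between genes, the order in glands was Des at 60.3 ± 55.5, Acta2 at 24.2 ± 15.2, Oxtr at 13.9 ± 10.9, Myh11 at 13.7 ± 3.78, Myl9 at 13.0 ± 8.52, Tagln at 9.09 ± 7.11, Lmod1 at 8.45 ± 5.10, Mylk at 6.25 ± 0.463, Cnn1 at 2.05 ± 1.95 and Actg2 at 0.318 ± 0.336 CPM per kb (SD, n = 3). Neighbours in that order did not differ beyond their SD, except that Mylk stood above Cnn1 by more than both SDs together. In tumours Acta2 led with 41.6 ± 33.5 CPM per kb, followed by Myl9 at 13.7 ± 9.83 and Tagln at 12.9 ± 11.3 (SD, n = 4). Myh11 stood at 2.46 ± 1.79 and Lmod1 at 0.875 ± 0.532 CPM per kb there, the lowest of the members being Lmod1. The SD between tumours exceeded the mean for Des, Oxtr and Actg2.

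Among tumour types, Myh11 fell in the adenosquamous and papillary tumours against the same 3 glands, and Mylk fell in the adenosquamous tumours. These comparisons share their controls and were made in 1 fit of 4 groups over 16866 genes. The spindle cell and papillary tumours are single libraries, so their spread was taken to be that of the other groups. In adenosquamous tumours 2 of 10 members passed, both lower, where 7.19% of all genes passed, 3.65% higher and 3.53% lower. Myh11 averaged 18.2 ± 7.04 CPM (SD, n = 2) against 104 in glands, a log2 difference of -2.53 (SE 0.43, 5.78-fold lower, edgeR adjusted p = 0.0284). Mylk differed by -1.45 (SE 0.29, 2.72-fold lower, edgeR adjusted p = 0.0392). For Myh11 the adjusted p was 0.0664 without gland 3, 0.0895 without tumour 1a and 0.154 without tumour 1b. For Mylk it was 0.0593, 0.0741 and 0.105 without gland 1, 2 or 3, and 0.14 and 0.23 without tumour 1a or 1b.

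Another 3 members of the adenosquamous comparison had an adjusted p near the threshold. Oxtr differed by -5.40 (SE 1.27, edgeR adjusted p = 0.0568), Actg2 by 3.83 (SE 0.91, 0.0574) and Lmod1 by -3.07 (SE 0.75, 0.0611). With only the 5 libraries of these groups in the fit, Oxtr and Actg2 passed too, at adjusted p = 0.0487 and 0.0436 by edgeR. Acta2 differed by 1.18 (SE 0.66, edgeR adjusted p = 0.296) and Tagln by 1.12 (SE 0.79, 0.399). Beside these stand the basal and stromal markers of the same tumours. The summed CPM of 9 basal epithelial genes was 2070 in tumour 1a and 1250 in tumour 1b against 136 to 182 in glands, and 6 of the 9 rose. The sum of 8 fibroblast genes was 5090 in tumour 1a and 1430 in tumour 1b against 427 to 1200 in glands. Most of it came from Col1a1, Col1a2 and Postn, and of the 8 genes Col1a1 and Col1a2 rose and 6 did not pass. Lum and Fap lay below every gland in both tumours, and Dcn and Pdgfra, each at 12.5 CPM, did so in tumour 1b. The part of either cell type in the actin levels was not tested.

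In the spindle cell tumour against glands, 0 of 10 members passed the edgeR test, where 1.45% of all genes passed. Unadjusted p was under 0.05 for 4 members, limma-voom called 0, and DESeq2 called 4 (Myh11, Lmod1, Des and Oxtr). The edgeR log2 differences were -7.22 for Des (SE 2.46, adjusted p = 0.181), -5.48 for Oxtr (SE 1.76, 0.163), -2.70 for Lmod1 (SE 0.99, 0.206) and -1.55 for Myh11 (SE 0.54, 0.189). Without gland 2, Des passed at -7.78 (edgeR adjusted p = 0.0478). Mylk and Acta2 stood at 0.32 (SE 0.34, edgeR adjusted p = 0.639) and 1.10 (SE 0.80, 0.493). Summed mural cell markers were 154 CPM in this tumour, the lowest library, against 374 to 503 CPM in glands. Of these, Notch3 at 49.6 CPM and Ndufa4l2 at 13.9 CPM lay above every gland. Summed endothelial markers were 68.8 CPM against 238 to 385 CPM. Their part in the member levels was not tested.

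In the papillary tumour against glands, 1 of 10 members passed, where 6.76% of all genes passed, 3.79% higher and 2.96% lower. Myh11 fell by 4.89 on the log2 scale (SE 0.67, 29.7-fold lower, edgeR adjusted p = 0.0277), and without gland 3 its adjusted p was 0.0687. Lmod1 stood at -5.00 (SE 1.14, edgeR adjusted p = 0.0543), Des at -7.95 (SE 2.52, 0.11), Myl9 at -2.92 (SE 1.01, 0.131) and Acta2 at -2.68 (SE 1.01, 0.154). Without gland 2, 3 members passed, with Lmod1 at -5.42 (edgeR adjusted p = 0.0242) and Des at -8.51 (0.0282) beside Myh11. The members' median log2 difference was -2.80, against -0.02 over all genes tested. This tumour had the lowest value of the 7 libraries for 5 members (Acta2, Myh11, Myl9, Lmod1 and Des). It had the lowest of the 4 tumours for Cnn1 and Tagln as well. The share of all genes lowest in this library was not counted, so these counts do not set the members apart from other genes. Oxtr stood at -0.02 (SE 1.20, edgeR adjusted p = 0.997). Beside it, the summed level of 10 luminal genes was 2490 CPM against 519 to 986 CPM in glands. Of these genes 7 lay above every gland, such as Elf5 at 550 CPM and Krt19 at 731 CPM, and the hormone receptor genes Prlr, Esr1 and Pgr lay below every gland, at 109, 20.2 and 0.139 CPM. Krt8 and Krt19 rose and 8 did not pass. The share of all genes above or below every gland in this library was not counted, so the count of 7 does not set luminal genes apart. The summed level of 9 basal genes was 700 CPM against 136 to 182 CPM, most of it from Itga6 at 639 CPM, which rose. Itgb4, Krt14 and Cdh3 also lay above every gland, while Krt5 and Trp63, each at 0.348 CPM, Col17a1 at 0.209 CPM and Snai2 at 0.279 CPM lay below. Trp63 fell by 6.08 on the log2 scale (SE 0.70, edgeR adjusted p = 0.0212, and 0.0653 without gland 3). Summed endothelial markers were 42.5 CPM against 238 to 385 CPM in glands, and of them only Cdh5 fell (edgeR adjusted p = 0.0338). Summed fibroblast markers were 224 CPM against 427 to 1200 CPM, and of them only Fap fell (edgeR adjusted p = 0.049). Col1a1 at 84.5 CPM lay just above every gland. The part of these cells in the member levels was not tested. Which cells held the Oxtr RNA was not tested either.

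**Figure D3:**
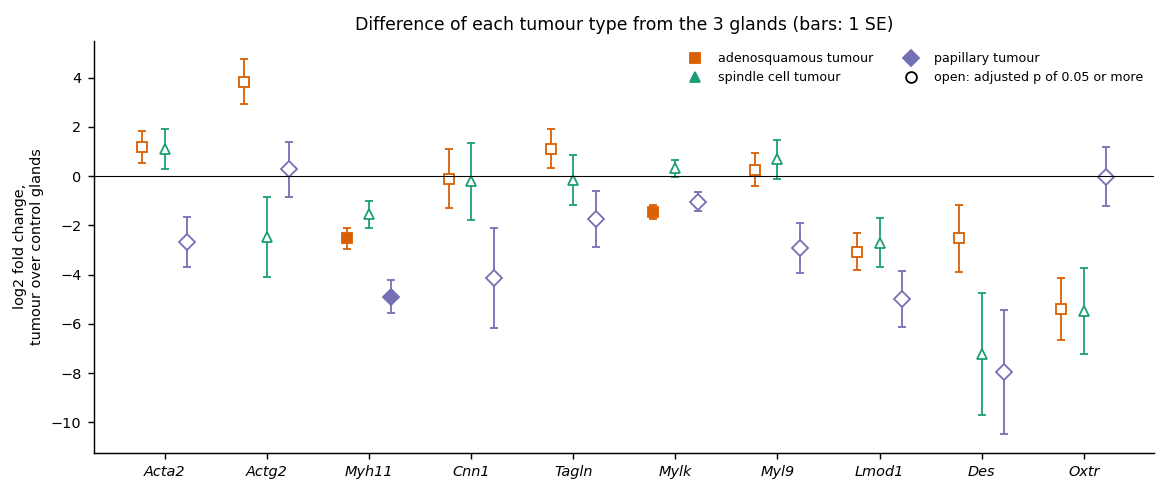
Log2 difference of each tumour type from the 3 glands for the 10 genes, from the 4-group edgeR fit, with bars of 1 SE. Filled symbols mark an adjusted p under 0.05, which are Myh11 in the adenosquamous and papillary tumours and Mylk in the adenosquamous tumours.

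Compared directly, no member passed the edgeR test between any pair of tumour types. The share of all genes that passed was 0% for spindle cell against adenosquamous, 0.35% for papillary against adenosquamous (0.202% higher, 0.148% lower) and 0% for papillary against spindle cell. Unadjusted p was under 0.05 for 2, 5 and 5 members in that order, limma-voom called 0, 0 and 0, and DESeq2 called 3, 6 and 5. Between papillary and adenosquamous tumours, edgeR gave log2 differences of 5.37 for Oxtr (SE 1.37, adjusted p = 0.122), -3.87 for Acta2 (SE 1.11, 0.147), -2.36 for Myh11 (SE 0.59, 0.118) and -3.20 for Myl9 (SE 1.05, 0.184). Between spindle cell and adenosquamous tumours Mylk differed by 1.77 (SE 0.35, edgeR adjusted p = 0.162) and Actg2 by -6.31 (SE 1.77, 0.265), the latter from 1 count in the spindle cell tumour. So the opposite positions of Oxtr and of Acta2 in the papillary tumour, and the high Mylk of the spindle cell tumour, were large but not past the threshold in a design with 1 library of each.

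Ratios of counts within 1 library do not depend on scaling between libraries, and the pairs given here were chosen after their values were seen, so they carry no test. Acta2 over Myh11 was 0.306, 0.458 and 0.664 in glands 1, 2 and 3. It was 7.83, 4.81, 3.20 and 2.37 in tumours 1a, 1b, 3 and 4. Every tumour lay above every gland. The exact 95% intervals reached 0.704 in the highest gland and started at 1.86 in the lowest tumour. They cover counting error and not the spread between animals. Myl9 over Myh11 was separated in the same way, at 0.0776 to 0.190 in glands and 0.577 to 1.13 in tumours. Tagln over Myh11 was 0.0502 to 0.239 in glands and 0.463 to 2.47 in tumours. Myh11 is the shared term of these ratios, so they are not separate observations. Its level was already below every gland in every tumour, which raises all 3 ratios there, and other gene pairs were not counted. Acta2, Myl9 and Tagln have 2.2, 1.16 and 1.99 kb of exon, against 7.6 kb for Myh11. Gland 1 had lower values for short genes, and the part of that in its ratios was not tested. The papillary tumour had the lowest Acta2 level and still lay above the glands in all 3 ratios.

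**Figure D4:**
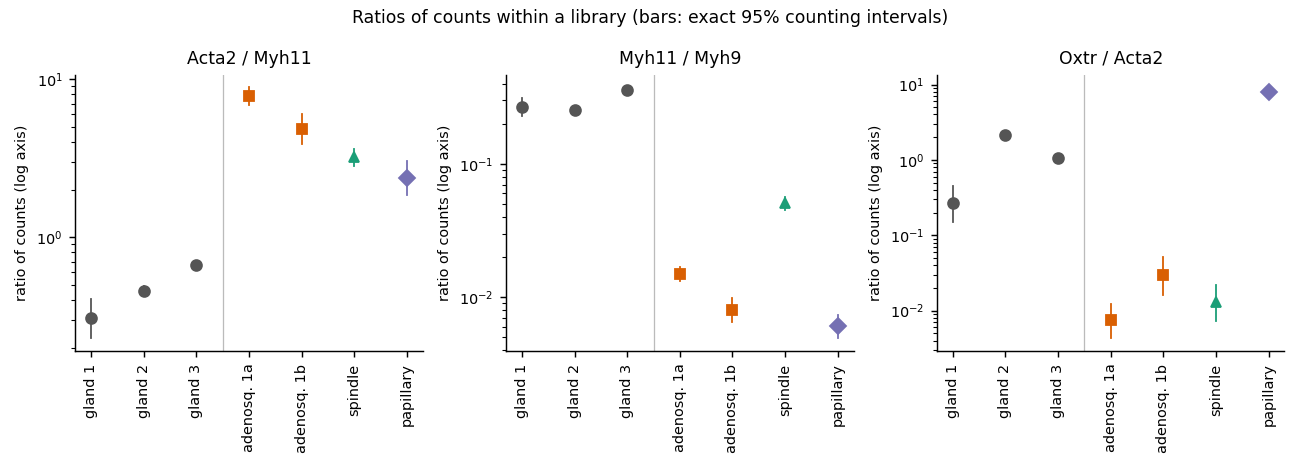
Ratios of counts within each library on log axes, with exact 95% intervals for counting error. Acta2 over Myh11 is higher in each of the 4 tumours than in the 3 glands, and Myh11 over Myh9 is lower. Oxtr over Acta2 is highest in the papillary tumour. The counts are not divided by exon length, so a ratio of 1 has no meaning of its own. Per kilobase of exon, Acta2 over Myh11 was 1.06, 1.59 and 2.3 in glands 1, 2 and 3.

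Of 14 non-muscle relatives of the members 1 rose, none fell and 13 did not pass, where 3.9% of all genes were higher. Their median log2 fold change was 1.28 against 0.12 over all genes. Of the 14, 12 overlapped between glands and tumours. Actg1 and Myh9 had every tumour above every gland, as did 16.3% of all genes tested. In the papillary tumour Myh10, Cnn3, Vim, Tpm3 and Myl6 lay below every gland, and Vim did so in the spindle cell tumour too. Actg1, cytoplasmic gamma actin, stood at 73.9, 157 and 134 CPM in glands and at 590, 749, 409 and 350 CPM in tumours 1a, 1b, 3 and 4. It rose by 2.11 on the log2 scale (SE 0.43, edgeR adjusted p = 0.0293), and its adjusted p lay between 0.0535 and 0.111 when any 1 library other than the papillary tumour was left out. Myh9, non-muscle myosin IIA, stood at 288, 400 and 372 CPM in glands and at 1560, 1640, 693 and 559 CPM in the tumours, without overlap. Over all tumours its log2 fold change was 1.65 (SE 0.50, edgeR adjusted p = 0.0819), and in the adenosquamous tumours it was 2.17 (SE 0.38, 0.0294), with an adjusted p of 0.0514 to 0.127 without any 1 gland or adenosquamous tumour. Myh11 over Myh9 was 0.269, 0.253 and 0.362 in glands, and it was 0.0149 and 0.00805 in the adenosquamous, 0.0506 in the spindle cell and 0.00604 in the papillary tumour. Actb and Vim, cytoplasmic beta actin and vimentin, stood at 1.50 (SE 0.70, edgeR adjusted p = 0.204) and 0.56 (SE 0.83, 0.688).

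Of 20 further contractile and cytoskeletal genes, 17 were tested, of which 5 fell, none rose and 12 did not pass, beside 4.57% lower and 3.9% higher among all genes. The 3 with the smallest adjusted p were Tns1 (tensin 1, which ties actin to integrins), Synpo2 (synaptopodin 2, an actin bundler of muscle) and Ppp1r12b (a myosin phosphatase subunit). Tns1 stood at 441, 537 and 409 CPM in glands and at 73.1, 41.8, 64.5 and 26.7 CPM in the tumours. It fell by 3.17 on the log2 scale (SE 0.40, edgeR adjusted p = 0.00966), with gland 2 the highest gland. Synpo2 fell by 4.05 (SE 0.71, edgeR adjusted p = 0.0196) and Ppp1r12b by 1.98 (SE 0.35, 0.0204). In glands 1, 2 and 3 Synpo2 stood at 128, 54.3 and 156 CPM and Ppp1r12b at 49.9, 38.6 and 91.2 CPM. Gland 2 was thus the lowest gland for both. With gland 2 as the only gland, the log2 fold changes of Tns1, Synpo2 and Ppp1r12b were -3.46, -3.06 and -1.41. The other 2, Hspb6 and Synm, were named after their values were seen: at 8.73 and 32.8 CPM in gland 2 against 121 to 394 CPM in glands 1 and 3, they followed the skeletal muscle genes. The count of 5 became 1, Tns1, without gland 1, gland 3, the spindle cell tumour or tumour 1b. Smtn (smoothelin) and Cald1 (caldesmon), also smooth muscle proteins, stood at 1.05 (SE 0.57, edgeR adjusted p = 0.259) and 0.39 (SE 0.59, 0.69).

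Of 9 regulators of these genes, 8 were tested, of which Mef2c, a muscle transcription factor, fell and 7 did not pass, beside 8.47% of all genes that passed. Mef2c stood at 242, 79.9 and 231 CPM in glands and at 48.3, 24.2, 13.3 and 5.54 CPM in the tumours. Its log2 fold change was -3.01 (SE 0.74, edgeR adjusted p = 0.0491), and the count of 1 became 0 without any 1 of the glands, the spindle cell tumour or tumour 1b, and where 10 counts were asked in 3 libraries. Srf stood at 11.0, 13.2 and 23.5 CPM in glands and at 28.2, 16.1, 16.9 and 11.2 CPM in the tumours, with a log2 fold change of 0.18 (SE 0.41, edgeR adjusted p = 0.801). Myocd, encoding myocardin, was at most 1.77 CPM in any library and was below the filter.

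Of 21 genes between the oxytocin receptor and contraction, 1 rose, 2 fell and 18 did not pass, beside 3.9% higher and 4.57% lower among all genes. Itpr3, a calcium release channel of the endoplasmic reticulum, stood at 28.6, 34.8 and 18.9 CPM in glands and at 123, 154, 77.5 and 89.8 CPM in the tumours. It rose by 2.02 (SE 0.36, edgeR adjusted p = 0.0207) on the log2 scale. Plcb1, 1 of the listed phospholipases that receptors of this kind activate, fell by 2.70 (SE 0.53, edgeR adjusted p = 0.0273). Its relatives Plcb3 and Plcb4 did not pass, at 0.50 (SE 0.26, edgeR adjusted p = 0.244) and -1.72 (SE 1.11, 0.339). Stim1, the calcium sensor of store-operated entry, fell by 1.35 (SE 0.25, edgeR adjusted p = 0.024). None of the calls of Itpr3, Plcb1 and Stim1 was left without gland 1 or without gland 3. The adjusted p of Plcb1 lay between 0.0513 and 0.1 without any 1 library other than the papillary tumour, and Stim1 did not pass without tumour 1b (adjusted p = 0.0645) or the spindle cell tumour (0.0638). In the papillary tumour, which had Oxtr at the level of the glands, Plcb1 stood at 3.14 CPM, against 57.3 to 78.3 CPM in glands, and fell by 4.44 (SE 0.59, edgeR adjusted p = 0.0264, and 0.0695 without gland 3). Of the 21 genes, 1 rose, 3 fell and 17 did not pass in that tumour, beside 3.79% higher and 2.96% lower among all genes. Plcb4 and Prkca were the other genes that fell. Their log2 differences were -5.99 (SE 0.90, edgeR adjusted p = 0.0285) and -4.28 (SE 0.60, 0.0277). Orai1, the store-operated channel, rose there by 2.53 (SE 0.50, 0.0404). Its adjusted p was 0.0722, 0.106, 0.0698 and 0.071 without gland 2, gland 3, tumour 1a or tumour 1b. No gene passed in this comparison without gland 3.

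Of the mural cell markers, Rgs5 had a log2 fold change of -1.75 (SE 0.44, edgeR adjusted p = 0.0528), Pdgfrb 0.64 (SE 0.83, 0.64) and Notch3 1.10 (SE 0.57, 0.241). Summed over 10 mural genes, the level was 374 to 503 CPM in glands and 154 to 400 CPM in tumours, with none of the 9 tested passing. In the papillary tumour against glands Rgs5 fell by 2.51 (SE 0.45, edgeR adjusted p = 0.0345) and Kcnj8 rose by 4.54 (SE 0.49, 0.0204). The rest did not pass. The largest terms of its sum of 400 CPM were Abcc9 at 144, Kcnj8 at 95.9 and Notch3 at 91.3 CPM. The skeletal muscle relatives Acta1 and Mylk2 stood at 2.46 and 0.0315 CPM in gland 2 and at 1070 and 95.1 CPM in gland 1. Among 8450 genes of average log2 CPM 3 or more, those whose levels ran most like the mean profile of the 10 members over the 7 libraries were Lamp2 (r = 0.97), Selenow (0.96), Adamts9 (0.96), Cxcl12 (0.95), Bnc2 (0.94) and Flot2 (0.94). That profile was highest in gland 3 and lowest in the papillary tumour, and Cxcl12 ran from 99.0 CPM in gland 3 to 3.28 CPM in the papillary tumour. These r values describe 7 libraries that differ also in depth and muscle content.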

How the data were processed

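Total RNA from 3 control mammary glands and 4 mammary tumours was sequenced with a TruSeq kit, per the labels' protocols, a kind that does not mark strand. STAR 2.5, RSEM 1.3, limma and the build GRCm38 are named, without roles, in the submitters' processing notes. The deposited tables give 1 value per gene under the heading TPM. The column sums differed between libraries and 2.34% to 6.14% of values were not whole, so the values were taken for expected counts made by the authors and were rounded. The sources used here give no annotation release or strand setting. Identifiers of 50376 of 50600 genes were found in GENCODE M21.

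Tests on these counts used edgeR 4.0.16 and R 4.3.3 (quasi-likelihood F test, TMM, filterByExpr with a minimum count of 10 and total of 15, two-sided, Benjamini-Hochberg over all genes tested, threshold 0.05). One fit had 2 groups (14149 genes) and the other had 4 (16866 genes), with common biological coefficients of variation of 0.6 and 0.538. SE is the log2 fold change over the square root of F. Levels in CPM used TMM-scaled library sizes, and log2 CPM a prior count of 2. A count of 0 was read as allowing up to 3 counts. The scripts were tested on simulated data.

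The members and the 12 lists were chosen with earlier results of these data known. The rule for naming took all 10 members, a set of fixed relatives and markers, from each further list the 3 higher and 3 lower members with the smallest adjusted p among those that passed, and the 6 genes with the most similar profile. Other genes named were chosen after their values were seen, were flagged for a closer look, or are cell markers given beside a result. Those chosen after their values were seen include Orai1, Plcb3, Plcb4, Prkca, Cnn3, Tpm3 and Myl6. Alternatives were DESeq2 1.42.0, limma-voom (limma 3.58.1), other scaling (median-ratio, upper-quartile and TMM without mitochondrial genes), other filters, another prior count, gland 2 as the only gland, only the adenosquamous tumours and glands, and leaving out each library. No pair of libraries of a group had identical values. P-values measure the spread between these samples, which for tumours 1a and 1b may be that of 1 animal. Promoter windows came from RefSeq (GRCm38.p6).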

Additional observations from a re-analysis of the deposited data

Results flagged for a closer look

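In groups of 4 libraries, a value whose gap to its nearest neighbour takes most of the group's range was singled out by Dixon's criterion, which chance meets in about 1 of 20 groups. Mylk in the 4 tumours was one such case, with the spindle cell tumour at 86.2 CPM above the others at 22.7 to 33.1 CPM. Its ratio of gap to range was 0.836, just over the critical value. Oxtr in the 4 tumours was the other, with the papillary tumour at 64.2 CPM against 1.36 to 1.90 CPM and a ratio of 0.991. For both genes the value outside belongs to the only tumour of its type. The number of groups screened was not allowed for. The share of all genes that meet the criterion was not counted, so neither gene is set apart from other genes by it.

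Of the non-muscle relatives, Myh10 (non-muscle myosin IIB) differed between tumour types in a direct test. It was lower in the papillary than in the adenosquamous tumours by a log2 difference of -5.80 (SE 0.49, edgeR adjusted p = 0.0414), from 1 library against 2. The adjusted p was 0.0676 and 0.0634 without gland 1 or gland 3 and 0.185 and 0.122 without tumour 1a or 1b, settings in which no gene passed. Its levels were 27.6, 27.4 and 33.3 CPM in glands, 76.6 and 70.5 CPM in tumours 1a and 1b, 28.9 CPM in the spindle cell tumour and 1.25 CPM in the papillary tumour. Against the glands it rose in the adenosquamous tumours by 1.31 (SE 0.26, edgeR adjusted p = 0.0394) and fell in the papillary tumour by 4.49 (SE 0.45, 0.0204) on the log2 scale. The first of these calls was lost without any 1 gland or adenosquamous tumour (adjusted p of 0.0677 to 0.165), and the second without gland 3 (0.0653).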

How the results depend on the processing

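Members passing in tumours against glands numbered 1, and 3 by DESeq2, 2 by limma-voom, 0 with gland 2 as the only gland and 0 to 3 when 1 library was left out. In adenosquamous tumours against glands the count was 2, and 5 by DESeq2, 5 without a filter, 4 with only these 5 libraries and 0 to 2 with 1 library left out. In the spindle cell tumour it was 0, and 4 by DESeq2, 2 without a filter and 0 to 1 with 1 library left out. In the papillary tumour it was 1, and 6 by DESeq2, 5 without a filter, 2 with 10 counts asked in 3 libraries and 0 to 3 with 1 library left out. Between tumour types the counts of 0 became 3 (spindle cell against adenosquamous), 6 (papillary against adenosquamous) and 5 (papillary against spindle cell) by DESeq2, and 0, 3 and 3 without a filter. They stayed at 0 with any 1 library left out.

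Of the log2 differences recomputed, 1062 kept direction and side of the threshold, 57 came to pass, 78 no longer passed and 32 changed sign, none of the last passing in either fit. The values that changed sign are given by comparison, with ranges for 1 library left out. In tumours against glands these ranges were -1.04 to 0.27 for Cnn1 (above 0 without gland 3) and -0.26 to 1.17 for Tagln (below 0 without tumour 1a). They were -0.30 to 0.66 for Myl9 (below 0 without gland 1, gland 2, tumour 1a or the spindle cell tumour, -0.30, -0.02, -0.28 and -0.19), -0.09 to 0.57 for Srf (below 0 without tumour 1a, and -0.01 without gland 1) and -0.03 to 0.64 for Cald1 (below 0 without tumour 1a). By limma-voom Tagln was -0.19, Myl9 -0.90 and Vim -0.07, and with gland 2 as the only gland Des was 0.30 and Cald1 -0.02. In adenosquamous tumours Cnn1 ranged from -0.79 to 0.66 (above 0 without gland 3, and 0.38 without tumour 1b), with 0.04 by limma-voom, and Myl9 from -0.44 to 0.88 (below 0 without tumour 1a, and -0.07 without gland 1). In the spindle cell tumour Cnn1 ranged from -0.71 to 0.55 and Tagln from -0.60 to 0.51, both above 0 without gland 3. In the papillary tumour Actg2 ranged from -0.01 (without gland 1) to 1.11, and Oxtr from -0.54 to 0.36 (above 0 without gland 2, and 0.30 without gland 3), with 0.22 by limma-voom and 0.01 without a filter. Between spindle cell and adenosquamous tumours the values without tumour 1a and without tumour 1b were 0.86 and -0.66 for Acta2 (0.08 by limma-voom), 0.60 and -0.57 for Cnn1, -0.10 and 1.03 for Lmod1, 1.14 and -0.08 for Myl9, and -0.32 and 0.15 for Oxtr. The cause of these changes was not tested.

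All genes passing numbered 1199 in tumours against glands (97 to 1351 with 1 library left out, 0 to 3403 under other settings), 1212 in adenosquamous tumours (0 to 1302, 1259 to 3552), 245 in the spindle cell tumour (0 to 380, 242 to 2302) and 1140 in the papillary tumour (0 to 1062, 1178 to 3698). Between tumour types they numbered 0 for spindle cell against adenosquamous (0 to 1087 under other settings), 59 for papillary against adenosquamous (0 to 75, 79 to 2243) and 0 for papillary against spindle cell (0 to 893). Counts were lowest for Actg2 and Cnn1 in gland 1, each at 0, and for Actg2 in the spindle cell tumour, at 1. In gland 1 the exact interval for counting error reached 1.3 CPM for both genes. For Actg2 that lay above the 0.441 and 1.04 CPM of glands 2 and 3. For Cnn1 it lay below their 6.24 and 10.6 CPM. The part of depth in these counts was not tested. No paired analysis was possible because the labels give no numbers that pair glands and tumours.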
